A study of Mus musculus with 7 samples.

Results

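The proteins of the cytosolic ribosome were followed through 84 of the 25697 probes on the array. A probe was a member when its annotated gene symbol began with Rpl or Rps followed by a digit, or was Rplp0, Rplp1, Rplp2 or Rpsa, with the Rps6k kinases and pseudogene names left out. These probes named 66 of the 16593 genes with a probe. The letters of the rule also caught 4 probes that carry a ribosomal protein's name but are not subunits of the ribosome, namely Rps19bp1, Rps23rg1 and both probes of Rpl7l1, and they are kept in the counts. The cells came fresh from mice, were labelled as leukemia stem cells, and in both groups were kept for 6 h in suspension in medium with serum. The treated group received 5 µM of BRD7116 (a small molecule, given by code name only) in 0.2% DMSO (5 arrays), and the control group received the 0.2% DMSO vehicle (2 arrays). The labels give no genotype, age or strain and do not say whether the replicates came from separate animals or cultures, so that p-values measure the spread between these arrays, which may be technical. The comparison asks how transcript levels differed between treated and control cells.

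A ribosome is built of a small subunit, which reads the messenger RNA, and a large subunit, which joins amino acids and passes the growing chain through an exit tunnel. Its proteins (Rps for small, Rpl for large) are made in matched amounts, and their mRNAs usually begin with a C and a run of pyrimidines, the 5' terminal oligopyrimidine (TOP) tract, through which mTORC1 and LARP1 control their translation. Transcript levels, as measured here, do not show translation. In blood formation these genes are known from Diamond-Blackfan anemia, in humans a failure of red cell production caused by loss of a single copy of certain ribosomal protein genes.

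The stretch around the transcription start is shown for 8 members, chosen because they lead the comparison or form a pair of paralogs. Sequences are from RefSeq (GRCm38.p6), 40 bases before the annotated start and 20 from it onward, 5' to 3' on the strand of the gene. Capitals mark a C followed by at least 4 bases that are each C or T, beginning within 10 bases of the annotated start, searched on the sense strand. Rpl35 lies at chr2:39005112-39005171 (minus strand), Rpl12 at chr2:32961672-32961731 (plus), Rpl38 at chr11:114668540-114668599 (plus), Rps27 at chr3:90213629-90213688 (minus), Rps27l at chr9:66946046-66946105 (plus), Rpl36a at chrX:134585614-134585673 (plus), Rpl36al at chr12:69184048-69184107 (minus) and Rps3 at chr7:99483690-99483749 (minus).
Rpl35: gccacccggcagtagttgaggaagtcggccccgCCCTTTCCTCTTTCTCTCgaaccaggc
Rpl12: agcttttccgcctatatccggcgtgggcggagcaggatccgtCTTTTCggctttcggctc
Rpl38: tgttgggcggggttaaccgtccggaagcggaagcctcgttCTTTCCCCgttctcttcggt
Rps27: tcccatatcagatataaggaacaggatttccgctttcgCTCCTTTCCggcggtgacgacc
Rps27l: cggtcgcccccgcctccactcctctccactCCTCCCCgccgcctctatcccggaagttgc
Rpl36a: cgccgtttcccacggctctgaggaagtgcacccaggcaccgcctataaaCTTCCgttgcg
Rpl36al: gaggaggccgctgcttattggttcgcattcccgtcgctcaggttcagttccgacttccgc
Rps3: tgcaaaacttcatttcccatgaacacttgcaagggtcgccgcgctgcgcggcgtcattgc

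In Rpl38 the run began at the annotated start itself, in Rpl35 and Rps27 it spanned that base, and in Rpl36al and Rps3 none lay in the window. RefSeq held a promoter for 57 of the 66 member genes. A run was found in 33 of them (57.9%), against 30.8% of the 27025 genes in the table. In 10 (17.5%) the annotated start base was itself a C followed by at least 4 such bases, against 2.48% of all genes. The annotated start can differ by some bases from the one used in these cells, and a match is a feature of the letters only.

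Sample quality differed by chip. The 7 arrays lay on 3 chips. BRD7116 replicate 1 and DMSO replicate 2 shared a chip whose brightest probe reached an intensity of 4515 and 4704 (the dim chip). BRD7116 replicate 2 and DMSO replicate 1 shared the second chip, and BRD7116 replicates 3 to 5 lay on the third chip, which held no control; there the brightest probe reached 27582 to 39655. Between 4412 and 8451 probes per array were detected (p under 0.05), fewest on the dim chip. The number of arrays limits the precision. Of 12 markers listed for the labelled cells, 9 passed the detection filter, among them Mpo, Elane, Prtn3, Ctsg, Hoxa9 and Meis1, while Cd34 and Cebpa were detected on 0 arrays and no probe was annotated as Kit. The T cell markers were detected on 0 arrays. All 5 neutrophil markers, 3 of 6 macrophage markers and 1 of 4 each for B cells and stroma passed the filter. Of the red cell precursor markers, only Hba-a1 passed the filter. Its log2 fold change was -0.92, with a limma p of 0.00348 unadjusted and 0.689 adjusted, so it was not called. Its part in the results below was not tested, and in bulk RNA fewer cells of a type and less RNA per cell cannot be told apart.

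Most ribosomal protein probes were detected on every array, and no difference between BRD7116 and DMSO passed the test for any of them. Of the 84 probes, 66 (57 genes) were tested, having been detected on 2 arrays or more, and 54 were detected on all 7. After Benjamini-Hochberg adjustment over all 8613 tested probes, limma called 0 members, where it called 0% of all probes. The lowest adjusted p among members was 0.689. At an unadjusted p under 0.05 there were 2 members with a higher mean (Rps3 and Rpl3l, 3.03% of members, against 3.23% of all probes) and 0 with a lower mean, against 3.44% of all probes. That count was 7 without BRD7116 replicate 1 (10.6% of members, against 15.9% of all probes) and 9 without DMSO replicate 1 (13.6% against 23.5%), and it lay between 0 and 1 without any other single array. Without DMSO replicate 1 limma called 753 probes after adjustment (8.74%) and 0 members, and without any other single array it called 0 of either.

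The median log2 fold change over the 66 tested members was 0.11, against 0.07 over all tested probes. It was 0.05 without DMSO replicate 2, 0.18 without BRD7116 replicate 1, 0.04 with chip as a block and 0.38, relative to the shift of all probes, with median scaling. The mean was higher with BRD7116 for 48 members and lower for 17 (4944 and 3668 of all tested probes), and the members' values ran from -0.57 to 0.74. The median was 0.10 over the 39 large subunit probes, of which 26 were higher, and 0.15 over the 26 small subunit probes, of which 22 were higher. For 56 of the 66 members the 95% interval of the difference lay within a 2-fold change either way, against 4861 of 8613 tested probes. For the other members the arrays could not show whether a change of that size was present. Among probes detected on every array the counts were 52 of 54 members and 2609 of 3088 probes. The 56 include Rplp1, whose difference is 0 by construction, and probes of Rps15a and Rps19 near background, described below. Those near-background probes also count among the 48 members, and the 22 small subunit probes, with a higher mean. The median half-width of the interval was 0.48 on the log2 scale. These values are differences between normalized log2 levels of the same probe.

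**Figure D1:**
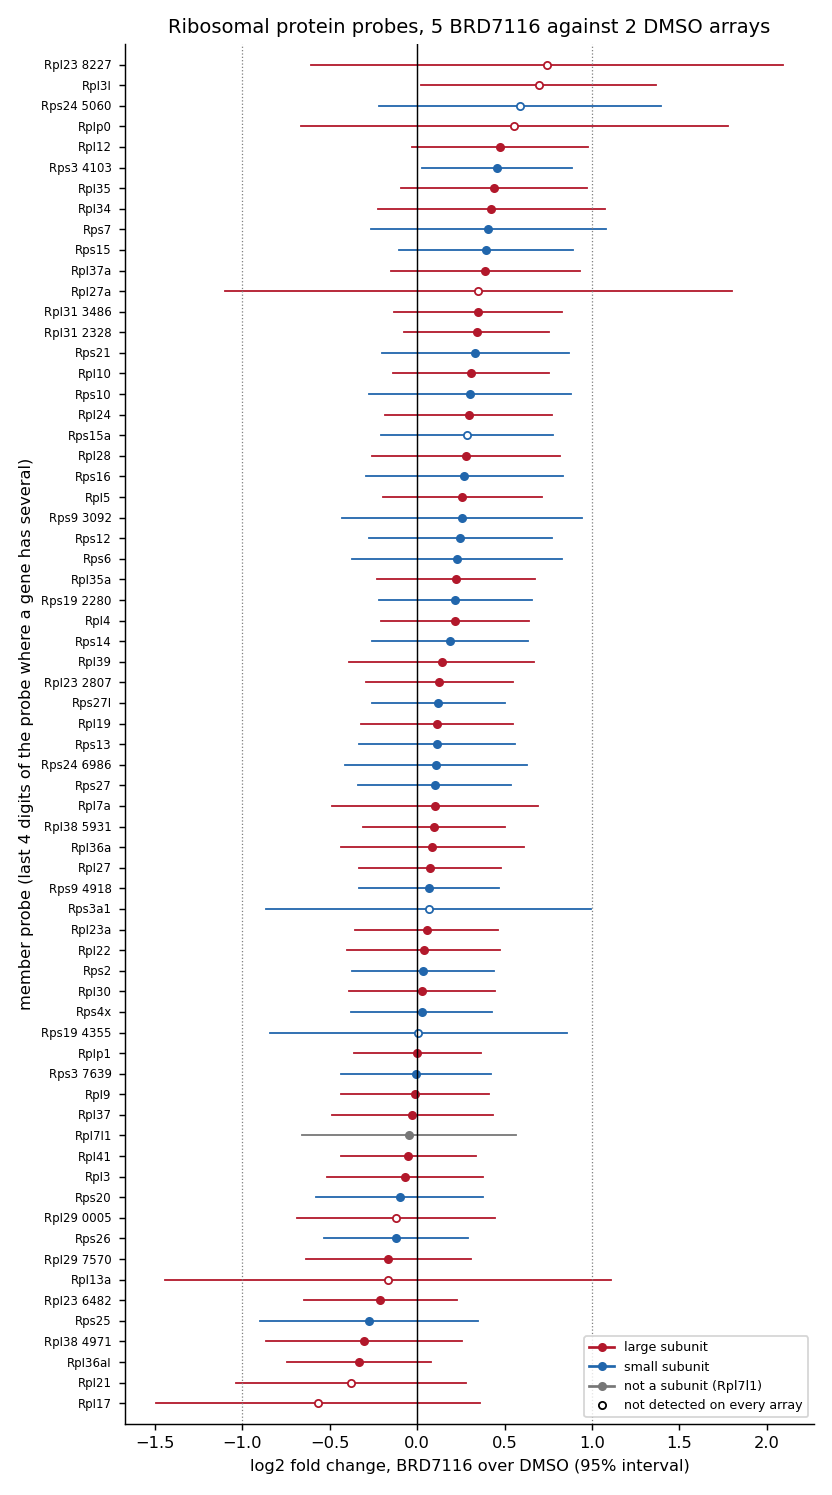
Log2 fold change, BRD7116 over DMSO, with its 95% interval for each of the 66 tested ribosomal protein probes (x axis), sorted by size; colour gives the subunit, open circles mark probes not detected on every array, and dotted lines mark a 2-fold change. Except for Rps3 (ILMN_2594103) and Rpl3l, the intervals include 0, and 48 points lie on the higher side.

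The positive differences were not spread evenly over the arrays. Measured from the mean of the 2 controls, the median shift of the 66 members was 0.04 in BRD7116 replicate 1 and 0.09 in replicate 2. On the third chip it was 0.26 in replicate 3, 0.24 in replicate 4 and 0.14 in replicate 5. The controls themselves lay at 0.06 (replicate 1) and -0.06 (replicate 2). The 3 arrays of the third chip were thus the highest, and without a control on that chip the chip and the treatment cannot be told apart there.

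Within the chips that held both groups the members moved little. The median difference was 0.07 on the dim chip, against 0.02 over all tested probes, and 0 on the second chip, against 0.01. Of the 54 members detected on every array, 19 were higher with BRD7116 on both of these chips, 12 were lower on both, 19 went in opposite directions and 4 showed no difference on at least 1 of them. The same count was not made over all probes, so it does not show a trait of the members. Over the same 54 members the fit gave a median of 0.11, against -0.02 over the 3088 probes detected on every array.

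**Figure D2:**
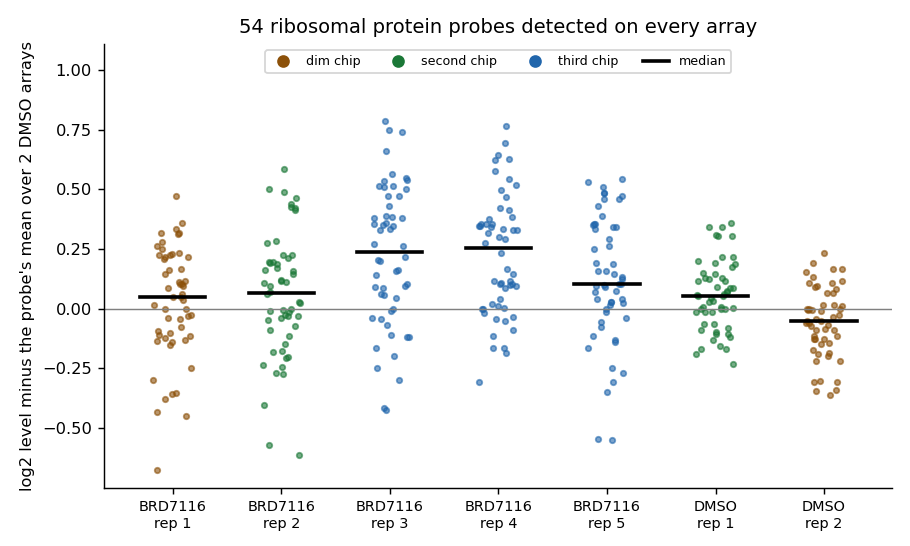
Log2 level of each of the 54 ribosomal protein probes detected on every array, minus the mean of that probe over the 2 DMSO arrays, by array and coloured by chip; bars are medians. The medians of BRD7116 replicates 3 and 4, on the third chip, stand at 0.24 and 0.25, and those of the other 5 arrays lie between -0.05 and 0.10.

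**Figure D3:**
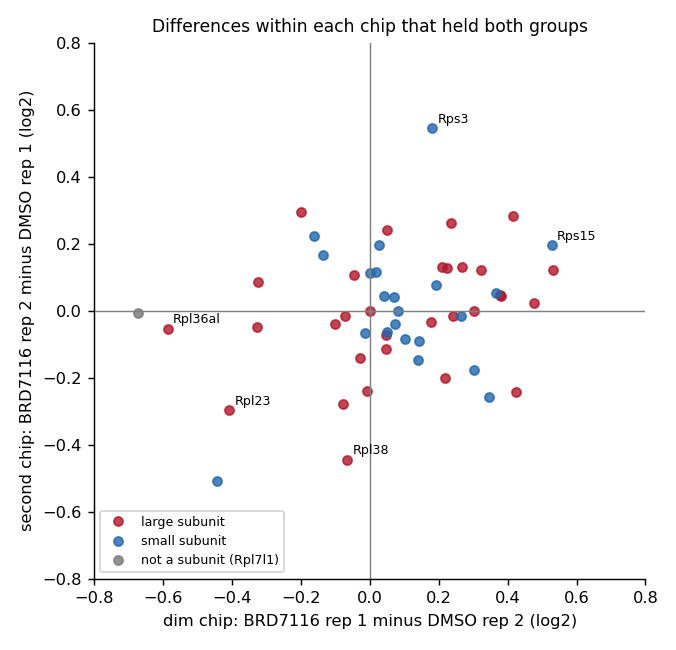
For the same 54 probes, the difference between the treated and the control array on the dim chip (x axis) and on the second chip (y axis), both in log2 units. 19 points lie in the upper right and 12 in the lower left, and Rps3 and Rps15 are among those higher on both chips. The same count was not made over all probes.

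Rps3, which lines the entry of the mRNA channel in the small subunit, had the smallest p of the members. Its probe ILMN_2594103 read 11.52, 11.73, 11.92, 11.62 and 11.81 in BRD7116 replicates 1 to 5, and 11.18 and 11.34 in the controls. All treated arrays lay above both controls. The means were 11.72 ± 0.16 (SD, n = 5) and 11.26 ± 0.11 (SD, n = 2), a log2 fold change of 0.46 (SE 0.19, unadjusted p 0.0394, adjusted limma p 0.689). A different probe of the gene, ILMN_2637639, read 9.74, 9.89, 9.78, 9.81 and 9.86 against 10.04 and 9.61, and the groups overlapped. The log2 fold change there was -0.01 (SE 0.19). The difference between the probes of Rps3 was 0.04 on the dim chip and 0.69 on the second chip, and it was not tested.

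All treated arrays lay above both controls for 5 of the 66 members (7.58%, against 5.7% of all tested probes) and below both for 1 (1.52%, against 5.12%). The 5 were Rps3, Rpl12, Rpl31, Rpl37a and Rps27l, and the 1 was Rpl36al. Rpl37a is a zinc finger protein of the large subunit, outside the naming rule and named here to complete the count. It had a log2 fold change of 0.39 (SE 0.23, adjusted limma p 0.694).

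The small subunit proteins that shape the mRNA path and the decoding site had 8 tested probes of 6 genes, 0 of them called and 7 with a higher mean, and their median log2 fold change was 0.15. Without Rps3, 6 probes of 5 genes had the same median. Rps15 in the head of the subunit had a log2 fold change of 0.39, which was 0.53 on the dim chip and 0.20 on the second chip. Rps14, at the platform, stood at 0.19, and Rps9, at the mRNA entry, at 0.26 and 0.07 with its 2 probes.

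Rps2, which also lines the entry channel, was the most even of them. It read 13.70, 13.85, 13.78, 13.62 and 13.89 with BRD7116 and 13.85 and 13.62 in the controls. The groups overlapped over nearly their whole range, and the log2 fold change was 0.03 (SE 0.18, adjusted limma p 0.952).

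Around the peptide exit tunnel of the large subunit, 7 of 8 tested probes had a higher mean and 0 were called, and the median was 0.18 on the log2 scale. Rpl35, at the mouth of the tunnel, read 12.56, 13.03, 12.99, 12.96 and 12.88 against 12.75 and 12.14. BRD7116 replicate 1 lay between the controls and the other 4 treated arrays lay above both. The log2 fold change was 0.44 (SE 0.23, unadjusted p 0.0939, adjusted limma p 0.689), and it was 0.14 without DMSO replicate 2 and 0.74 without DMSO replicate 1. On the dim chip alone the difference was 0.42, and on the second chip 0.28.

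Rpl31 also sits at the tunnel exit, and of the 8 genes with several tested probes it was the one whose probes gave the closest values. ILMN_3152328 read 12.02, 11.86, 12.08, 12.11 and 12.08 with BRD7116 and 11.84 and 11.55 in the controls. All treated arrays lay above both controls, BRD7116 replicate 2 by only 0.02 over its chip mate. Its log2 fold change was 0.34 (SE 0.18, adjusted limma p 0.689), and the other probe, ILMN_3073486, gave 0.35. With DMSO replicate 2 left out ILMN_3152328 gave 0.20, and with DMSO replicate 1 left out 0.48.

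Rpl17, a further protein of the tunnel exit, was the member with the lowest fold change, at a level near the detection limit. Its probe read 6.53, 5.40, 5.18, 5.43 and 5.19 with BRD7116 and 5.72 and 6.51 in the controls, and was detected on 3 treated and 2 control arrays. Both arrays of the dim chip read high, near 6.5, and the groups overlapped. The log2 fold change was -0.57 (SE 0.40, adjusted limma p 0.711), while the chips that held both groups gave 0.02 (dim) and -0.31 (second). Without DMSO replicate 2 it was -0.17, and without DMSO replicate 1 -0.96.

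Rpl39, a small protein inside the tunnel, read 10.84, 10.86, 11.31, 11.44 and 11.12 against 11.10 and 10.85. Only the third chip held values above both controls, and the log2 fold change was 0.14 (SE 0.23). On the dim chip the difference was -0.01, and on the second -0.24.

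**Figure D4:**
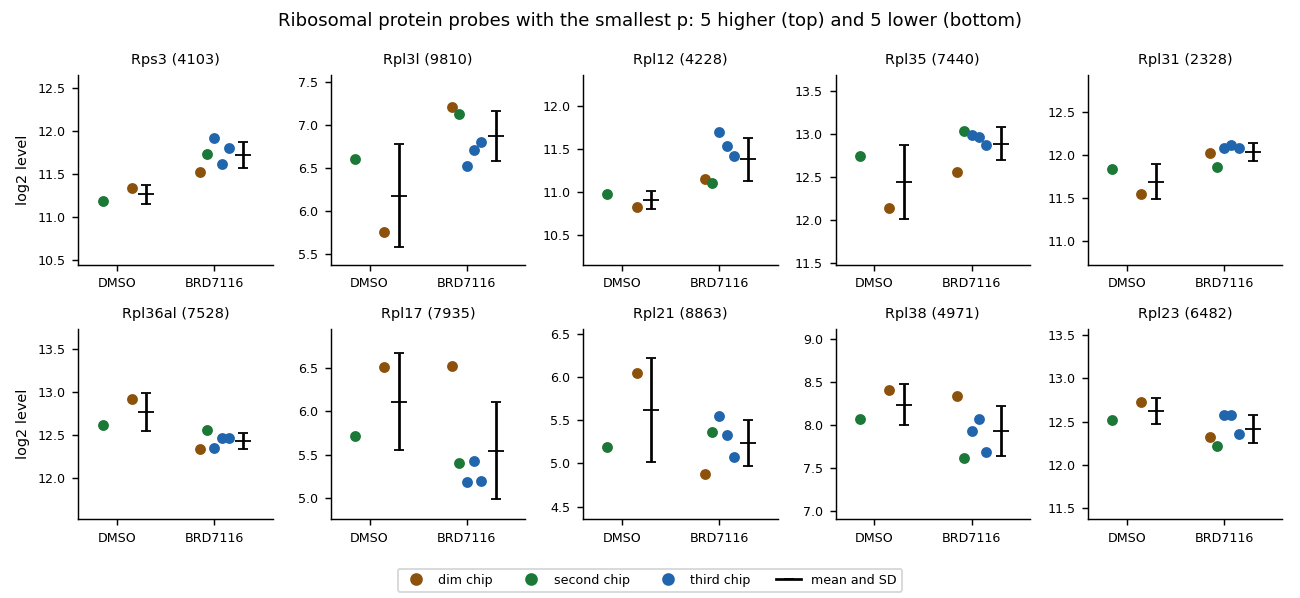
Log2 level (y axis, the same span in each panel) in every array for the 5 ribosomal protein probes with a higher mean and the 5 with a lower mean that had the smallest p; the last 4 digits of the probe follow the symbol, points are arrays coloured by chip, and bars give mean and SD (n = 2 and 5). Rps3, Rpl12 and Rpl31 show treated arrays above both controls and Rpl36al below both, while in Rpl17 and Rpl21 the dim chip sets the spread.

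The P stalk is the arm of the large subunit that recruits the translation factors, with Rplp0, Rplp1 and Rplp2 forming the arm and Rpl12 its base. Rpl12 read 11.15, 11.10, 11.69, 11.53 and 11.42 with BRD7116 and 10.98 and 10.83 in the controls. All treated arrays lay above both controls, and the arrays of the third chip were highest. Its log2 fold change was 0.47 (SE 0.22, unadjusted p 0.0616, adjusted limma p 0.689), with 0.32 on the dim chip and 0.12 on the second chip.

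Rplp0 was measured poorly. Probe ILMN_2744356 read 5.18, 6.57, 6.63, 6.60 and 6.64 against 6.58 and 4.96, and was detected on 4 treated arrays and 1 control. The low values were those of the dim chip, and the other 5 arrays lay between 6.57 and 6.64. The log2 fold change of 0.56 (SE 0.53, adjusted limma p 0.758) stood beside 0.22 on the dim chip and -0.01 on the second. Its other probe, and the probe of Rplp2, were detected on 0 arrays and were not tested.

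Rplp1 was the brightest of all probes on each of the 7 arrays. Quantile normalization gives the top rank the same value everywhere, so that its level was 14.58 on every array and its log2 fold change was 0 by construction. Its deposited intensity was 4515, 34192, 29632, 27582 and 39655 in BRD7116 replicates 1 to 5 and 32379 and 4704 in the controls. On the dim chip the treated array was the lower, and on the second chip it was the higher.

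The same limit touches other members, since 24 of the 100 brightest tested probes were ribosomal proteins. Brightness depends on the probe as well as the transcript and does not rank the genes. After Rplp1 the brightest were Rps20, Rpl38, Rps4x and Rps2. Rps20, in the head of the small subunit, read 14.23, 13.81, 13.89, 13.96 and 13.66 against 13.89 and 14.12, with overlapping groups and a log2 fold change of -0.10 (SE 0.21). Rps4x, in the body of the small subunit, read 13.78, 14.00, 13.66, 13.78 and 13.81 against 13.81 and 13.75, with a log2 fold change of 0.03 (SE 0.17).

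**Figure D5:**
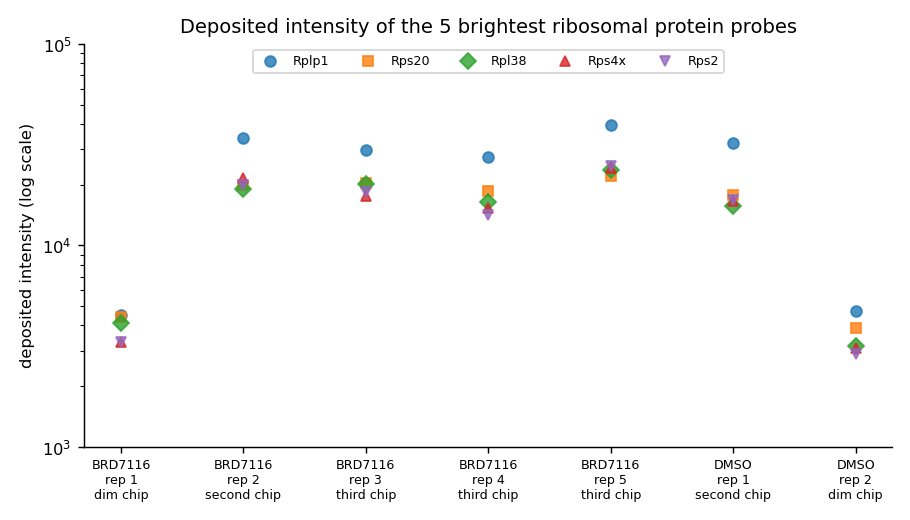
Deposited intensity, not normalized between arrays (log axis), of the 5 brightest ribosomal protein probes on each array. On the dim chip Rplp1 read 4515 and 4704 and on the other arrays 27582 to 39655, a difference between chips that exceeds any difference between treated and control arrays of 1 chip.

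Rpl5 carries the 5S rRNA into the large subunit and, when unassembled, binds Mdm2, the ligase that keeps p53 low. It read 9.87, 9.35, 9.66, 9.74 and 9.66 with BRD7116 and 9.31 and 9.49 in the controls. Replicate 2 lay between the controls and the other 4 treated arrays lay above both. The log2 fold change was 0.26 (SE 0.20, adjusted limma p 0.729), with 0.38 on the dim chip and 0.04 on the second. Its partner Rpl11 was not analysed here.

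Rpl10, which joins the large subunit in the last steps of its assembly, read 12, 12.38, 12.32, 12.26 and 12.28 against 12.11 and 11.76. BRD7116 replicate 1 lay between the controls and the others lay above both. BRD7116 over DMSO came to a log2 fold change of 0.31 (SE 0.19, adjusted limma p 0.704), and the differences within the dim and the second chip were close to each other, at 0.24 and 0.26. With a single control it was 0.13 (DMSO replicate 1) or 0.48 (DMSO replicate 2).

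The paralogs of ribosomal proteins, closely related genes that can replace the parent in some ribosomes, were compared with their parents as the difference of their log2 fold changes. There were 3 pairs with tested probes in both, and an exact permutation test over the 21 ways to choose 2 controls among 7 arrays cannot give a two-sided p under 0.0952.

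Rpl36al is a paralog of Rpl36a, a protein of the exit site for used tRNA. Rpl36al read 12.34, 12.56, 12.35, 12.46 and 12.46 with BRD7116 and 12.61 and 12.92 in the controls. It was the only member with all treated arrays below both controls, by 0.05 at the closest. Its log2 fold change was -0.33 (SE 0.18, unadjusted p 0.0992, adjusted limma p 0.689), with -0.59 on the dim chip and -0.05 on the second. Leaving out DMSO replicate 2 gave -0.18, and leaving out DMSO replicate 1 gave -0.49.

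Rpl36a read 8.72, 8.42, 9.12, 8.71 and 8.49 against 8.54 and 8.67, with overlapping groups and a log2 fold change of 0.09 (SE 0.23). Rpl36al minus Rpl36a was -0.42 (exact permutation p 0.19, 0.429 adjusted over the 3 pairs), -0.63 on the dim chip and 0.06 on the second chip. Rpl36al itself was lower with BRD7116 on both chips, by far more on the dim chip than on the second.

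Rpl3l, known as the muscle form of Rpl3 in mice, read 7.21, 7.12, 6.52, 6.71 and 6.80 with BRD7116 and 6.60 and 5.75 in the controls, where it was detected on 1 of 2 arrays. BRD7116 replicate 3 lay between the controls and the other treated arrays lay above both. Its log2 fold change was 0.69 (SE 0.29, unadjusted p 0.0443, adjusted limma p 0.689). It was 0.27 without DMSO replicate 2 and 1.12 without DMSO replicate 1. Other settings gave 0.24 with no background correction, 0.21 with the authors' processed values and 0.20 with cyclic loess. Without the dim chip it was 0.19, and with chip as a block 0.99.

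Rpl3 itself, near the peptidyl transferase center, read 12.19, 11.81, 11.98, 12.19 and 11.92 against 11.95 and 12.22, a log2 fold change of -0.07 (SE 0.19). Rpl3l minus Rpl3 was 0.76 (exact permutation p 0.286, 0.429 adjusted over the 3 pairs). It was 1.48 on the dim chip and 0.67 on the second chip.

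Rps27l, a paralog of Rps27 known as a target of p53, had all treated arrays above both controls, though by a very small margin. It read 11.42, 11.53, 11.57, 11.64 and 11.48 against 11.42 and 11.40. This made a log2 fold change of 0.12 (SE 0.17, adjusted limma p 0.819). Rps27 read 11.09, 10.88, 10.98, 10.79 and 10.63 against 10.83 and 10.72, a log2 fold change of 0.10 (SE 0.19). The difference between the paralogs was 0.02 (exact permutation p 0.952, also after adjustment), with -0.35 on the dim chip and 0.06 on the second.

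Rpl22, for which a role in T cell development is known in mice, read 8.43, 8.46, 8.33, 8.51 and 8.44 against 8.16 and 8.63. All treated arrays lay between the controls, and the log2 fold change was 0.04 (SE 0.19). Its paralog Rpl22l1 was detected on 0 arrays. Rpl7l1, a nucleolar protein related to Rpl7, read 7.57, 8.24, 8.46, 8.41 and 8.32 against 8.25 and 8.24, and BRD7116 replicate 1 stood apart at the low end. Its log2 fold change was -0.05 (SE 0.27).

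Of the genes with more than 1 tested probe, 8 in number, Rpl23, Rpl38 and Rps3 had probes of opposite sign. For Rps3 the lower value was only -0.01. Rpl23 lies on the face of the large subunit that meets the small one. Its probe ILMN_2946482 read 12.32, 12.22, 12.58, 12.58 and 12.35 against 12.51 and 12.73, with a log2 fold change of -0.21 (SE 0.19). Probe ILMN_2742807 read 11.54, 11.42, 11.76, 11.79 and 11.58 against 11.49 and 11.49, with 0.13 (SE 0.18). Both had overlapping groups, and in both the replicates 3 and 4 were the highest treated arrays. Probe ILMN_1238227 read 5.54, 7.13, 7.0, 6.71 and 7.19 against 6.91 and 5.03, low on the dim chip, with 0.74 (SE 0.59).

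Rpl38, known in mouse embryos for its role in the translation of Hox mRNAs, gave a similar contrast. Probe ILMN_2594971 read 8.34, 7.62, 7.94, 8.07 and 7.69 against 8.07 and 8.40, with overlapping groups and a log2 fold change of -0.30 (SE 0.24), or -0.14 and -0.47 without DMSO replicate 2 and 1. The brighter ILMN_3135931 read 14.08, 13.75, 13.85, 13.85 and 13.78 against 13.75 and 13.78, with 0.10 (SE 0.18). In 5 of the 8 genes (Rpl29, Rpl31, Rps19, Rps24 and Rps9) the probes had the same sign, with differences between probes from 0.01 to 0.48. For Rps19 that sign rests on ILMN_2754355, a probe near background that was detected on 0 controls. The dimmer probes of Rps24 and Rpl29 were detected on 6 and 3 arrays.

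A few members were seen in treated arrays only, at levels too low for a fold. Rpl21, a large subunit protein, was detected on 2 treated arrays and 0 controls, yet its probe ILMN_2688863 read 4.87, 5.36, 5.55, 5.33 and 5.08 against 5.19 and 6.04. The groups overlapped and the array with the highest value was DMSO replicate 2. Rps15a was detected on 3 treated arrays and Rps19 (ILMN_2754355) on 5, each on 0 controls. For all 3 probes the bright group's mean did not exceed the bound set by the lowest detected level, so no fold is given, and their points in the plot of all members are fitted differences near background. The filter kept such probes because of the treated arrays alone.

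The 18 untested probes were detected on 0 arrays or 1 array each. They were all the probes of Rpl6, Rpl14, Rpl22l1, Rpl39l, Rplp2, Rps23, Rpsa, Rps19bp1 and Rps23rg1, and 1 or 2 of the probes of Rpl4, Rpl7l1, Rpl21, Rpl23, Rpl27a, Rpl37 and Rplp0. Not well above background says that these probes gave no usable signal here, also for genes that every cell uses, such as Rpl6, Rps23 and Rpsa.

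The genes of Diamond-Blackfan anemia cut across both subunits. Of 20 listed genes 13 had tested probes (16 in number), and 0 were called. The mean was higher for 14 probes and lower for 2, against 4944 and 3668 of the 8613 tested probes. The median log2 fold change was 0.24 and the range -0.12 to 0.59. The 14 include probes of Rps15a and Rps19 (ILMN_2754355) that were detected on 0 controls and for which no fold is given. The highest value was that of Rps24 ILMN_2625060, a dim probe detected on 1 control, and the brighter Rps24 probe gave 0.11. Rps19, the gene most often mutated in the human disease, had 0.22 with its bright probe. Rps7 had 0.41, Rps10 0.30, Rpl35a 0.22 and Rps26 -0.12, all with groups that overlapped. These genes are members of the same 66 probes and not a separate measurement.

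Transcripts that share the TOP tract or the assembly line with ribosomal proteins also had 0 calls. Other TOP mRNAs, mostly translation factors, had 24 tested probes with a median log2 fold change of 0.15, 0 called, 1 higher and 0 lower at an unadjusted p under 0.05. Eif3f, a subunit of initiation factor eIF3, had 0.53 (unadjusted limma p 0.0383), Eif3k, another subunit, 0.87 (0.0674), and Npm1, a nucleolar chaperone and the brightest of them, 0.13. Eif3k was detected on 1 control only, and its difference was 2.25 on the dim chip and 0.35 on the second. Fau, the precursor of the small subunit protein eS30, whose symbol lies outside the rule, had -0.02. Proteins of the mitochondrial ribosome, a separate machine, had 85 tested probes with a median of 0.10, 2 higher and 3 lower at that p, and 0 called.

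Other lists, linked to ribosome production, its control and p53, were mixed. The mTORC1 and LARP1 list had 12 tested probes, a median log2 fold change of -0.02 and 0 called. Mtor, its kinase, had -0.56 (unadjusted limma p 0.0129), and Mlst8, a partner of that kinase, had 0.97 (0.0327) with ILMN_2906471 but 0.05 and -0.09 with its other probes. Ribosome assembly factors had 21 tested probes and a median of 0.06, with -0.40 and -0.41 for the probes of Heatr1, a nucleolar protein. Ncl (nucleolin) was detected on 4 treated arrays and 0 controls, and its bound gives no fold. RNA polymerase I genes had 10 tested probes and a median of 0.20, with 0.19 and 0.15 for Polr1d, the brightest. Taf1d, a promoter factor, and Polr1a, the large catalytic subunit, had 0.48 and 0.23 with the probe detected on all 7 arrays; their probes of smallest p were detected on 4 and 3 treated arrays and 0 controls, and the bounds give no fold. The p53 list had 9 tested probes and a median of 0.15, and its Bbc3 probes, for the cell death protein Puma, differed. ILMN_2920736 was detected on 4 treated arrays and 0 controls, and its bound gives a mean at least 1.05-fold higher with BRD7116 (adjusted limma p 0.689). That bound leaves out the spread between arrays, and the probe was not called. ILMN_2690620 had -0.50. Ccng1, a p53 target, had 1.23, 0.39 and 0.05 with its 3 probes, the last of which was detected on all 7 arrays. Mdm2 had -0.19 and 0.15. Every list had 0 calls after adjustment.

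Read by the sequences shown above, members with a pyrimidine run near the annotated start and members without overlapped in their values. The 30 tested probes with a run had log2 fold changes from -0.30 to 0.69, with 0.24 at the median. The 26 without had a median of 0.12 and values from -0.33 to 0.74. The 10 probes of genes with no RefSeq promoter in the table had a median of -0.08. Rps3 (ILMN_2594103) and Rpl36al, with no run in the window, had opposite signs, at 0.46 and -0.33. The other probe of Rps3 stood at -0.01. Rpl35 and Rps27, both with a run over the start, stood at 0.44 and 0.10. No test was made of this split, since members are not replicates of a condition.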

How the data were processed

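Per the labels, biotin-labelled RNA made from total RNA was read on MouseRef-8 v2.0 BeadChips (Illumina). Groups came from the sample titles and chips from the description labels. The authors deposited an intensity for every probe on every array, which per the file headers is not normalized, with a detection p-value for each. They also deposited processed log2 values, whose method is not given in the sources used here; these served as an alternative. The scanner software is likewise not stated.

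The neqc function of limma 3.58.1 (R 4.3.3) corrected the background from the detection p-values, added an offset of 16, quantile normalized the arrays and gave log2 levels. A probe was tested, each on its own (8613), if its detection p was under 0.05 in 2 or more arrays. Treated and control arrays were compared in limma (lmFit, eBayes, two-sided, no covariates), adjusted by Benjamini-Hochberg over all tested probes, threshold 0.05. Intervals are at 95% from the same fit. Symbols came from the platform annotation (1719 probes had none), and a RefSeq check of assembly GRCm38.p6 changed 0 symbols. Ribosomal proteins without a probe of that symbol were not analysed here.

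The members and lists were chosen with earlier results of these data known. The text names, by rule, the 5 members with a higher and the 5 with a lower mean of smallest p, the 5 brightest, the stalk, 5S, Rpsa and paralog probes with their parents, and genes whose probes differ by over 0.5 or in sign. Of each list described, role lists included, it names the 2 genes of smallest p and the brightest (Rps15 through the decoding list). Rps14, Rps9, Rpl37a, Rps7, Rps10, Rpl35a, Rps19 and Rps26 were named outside it, after their values were seen, as examples of their group.

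Equal replicate numbers lay on different chips, and their deviations from the group means correlated at -0.52 and -0.32, so they were not taken as pairs. Arrays sharing a chip correlated at 0.52 and 0.32, the same sizes by construction with 2 controls, and chip as a block was an alternative. Alternatives changed the background correction, normalization, filter, prior, array weights and probe summary, took the authors' processed values, added chip or replicate number as a block, and left out arrays. With 1 control left, its spread was taken from the treated arrays. Tested on simulated data with 200 changed probes among the 8613 (10 runs, normal noise), the fit of 5 against 2 arrays recovered 27.3% of 2-fold and 75.2% of 4-fold changes, with 6.5 false calls per run.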

Additional observations from a re-analysis of the deposited data

Results flagged for a closer look

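Within the 5 treated arrays, 27 member probes were examined for an array that stood apart by Dixon's ratio, with a critical value of 0.71. Chance flags about 1 in 20, or 1.35 of the 27, and 4 were found, all in BRD7116 replicate 1, the treated array of the dim chip. For Rpl17 that array read 6.53 and the nearest treated array 5.43. For Rplp0 (ILMN_2744356) it read 5.18 against 6.57. For Rpl7l1 it read 7.57 against 8.24, and for Rpl23 (ILMN_1238227) 5.54 against 6.71. The control on the same chip, DMSO replicate 2, read 6.51 for Rpl17, 4.96 for Rplp0 and 5.03 for that Rpl23 probe, near the treated array in each, but 8.24 for Rpl7l1.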

How the results depend on the processing

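In all 20 alternatives run, 0 members were called. Over all tested probes limma called 1 with normexp background, cyclic loess, detection on all 7 arrays, no filter, the authors' values or without the dim chip, 2 with no background correction or a trend and robust prior, and 0 to 753 when single arrays were left out; the 753 came without DMSO replicate 1. Members at an unadjusted p under 0.05 numbered 7 with no background correction (10.6%, against 6.78% of all probes) or the authors' values (10.6%, 6.62%), 0 with median scaling (0.372% of all) or array weights (6.14% of all), 4 when detected on all 7 arrays (7.41%, 8.61%), 5 with no filter (5.95%, 6.42%), 8 with the trend and robust prior (12.1%, 6.90%), 1 with chip as a block (1.52%, 12.5%), 0 with the replicate block (0.174% of all), 1 without the dim chip (1.52%, 8.88%) and 0 to 9 with single arrays left out. Median scaling moved all probes by 0.53; relative to that shift the members' median was 0.38 (large subunit 0.38, small 0.39). Within the second chip these medians were 0, 0 and 0.020. With single arrays left out the small subunit median ran from 0.056 to 0.29, the latter without DMSO replicate 1. With the replicate block, or chip as a block, which gives the same estimates, the members' median was 0.04, and Rps20 (0.0085), Rpl36a (-0.033), Rpl39 (-0.12) and Rpl23 ILMN_2742807 (-0.012) changed sign. Median scaling, relative to the shift, reversed Rpl36al (0.022), Rpl38 ILMN_2594971 (0.022), Rpl23 ILMN_2946482 (0.14), Rps20 (0.27), Rpl3 (0.22), Rpl7l1 (0.29) and Rps3 ILMN_2637639 (0.26). Cyclic loess reversed Rps20 (0.068), and array weights reversed Rpl7l1 (0.095) and Rps3 ILMN_2637639 (0.011). Without the dim chip Rpl21 (0.14, a fitted difference near background, as is its range below), Rps2 (-0.065), Rps27 (-0.0055), Rpl3 (0.020) and Rpl7l1 (0.11) changed sign. With single arrays left out the log2 fold change ran from -0.80 to 0.047 for Rpl21, -0.22 to 0.017 for Rps20, -0.023 to 0.063 for Rps4x, -0.081 to 0.15 for Rps2, -0.25 to 1.37 for Rplp0, -0.20 to 0.27 for Rpl22, -0.20 to 0.063 for Rpl3, -0.019 to 0.15 for Rpl36a, -0.11 to 0.11 for Rpl7l1, -0.20 to 1.69 for Rpl23 ILMN_1238227 and -0.22 to 0.21 for Rps3 ILMN_2637639. Of the other values for named members, 549 were counted as unchanged. In the fits these kept their sign and their side of the threshold, which no member passed in any alternative. Within a single chip they moved by less than the spread, while 21 such values moved by more. Sizes still varied among the 549, with Rpl3l from 0.19 to 1.12 and Rpl17 from -0.96 to -0.15. The causes were not tested. Only 2 controls were available, 1 of them on the dim chip. The members that changed sign included bright probes, such as those of Rps20 and Rps2, as well as dim ones.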
